A study of Mus musculus with 6 samples.

Results

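The lipins and the acyltransferases of triglyceride synthesis were examined in N2a (neuro2a) cells, a mouse neuroblastoma line, after knockdown of the transcription factor NF-Y. The set was fixed by name, with earlier results of these data known. It held 10 genes, namely Lpin1, Lpin2, Lpin3, Gpam, Agpat1, Agpat2, Agpat3, Agpat5, Dgat1 and Dgat2. They were read on 11 of 55681 probes, since Lpin1 had 2 probes, and all 10 genes were among the 16478 genes tested. RNA was measured on 6 one-colour Agilent arrays. The 3 control arrays carried RNA of cells transfected with an empty vector, and the 3 knockdown arrays carried RNA of cells transfected with vectors for RNAi of the NF-YA and NF-YC subunits. Both groups were the same cell line, transiently transfected as pools, and no sorting of transfected cells was described for the arrays. The labels do not say whether the 3 samples of a group were separate cultures, so the p-values below measure the spread between these samples, which may be technical. In such bulk RNA, fewer cells of a type and less RNA per cell cannot be told apart.

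Triglyceride is built on glycerol 3-phosphate along the glycerol phosphate pathway. Gpam encodes a mitochondrial acyltransferase that attaches the first fatty acid, and the AGPAT enzymes attach the next one to give phosphatidic acid. Lipins remove the phosphate from phosphatidic acid, which yields diacylglycerol, and the DGAT enzymes add the last fatty acid. Diacylglycerol is also the starting point of phosphatidylcholine and phosphatidylethanolamine, so the lipin step feeds membranes as well as fat stores. Lipin 1 is in addition known to enter the nucleus and to act on transcription of fat metabolism genes.

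The knockdown itself was read from the targeted genes. Nfya was at 59.1% of its control signal and both Nfyc probes were at 28.6%, with limma adjusted p values of 0.00128 for Nfya and 0.000322 for Nfyc, whereas the 3 probes of Nfyb, the untargeted subunit, were higher by 0.83, 0.93 and 0.93 on the log2 scale. The share of spots well above background lay between 61.9% and 66.2%, no spot was saturated, and arrays correlated across probes at 0.989 to 0.995 inside a group and at 0.987 to 0.990 from one group to the other. All 6 arrays came from 1 slide and 1 scan. Control arrays 1 to 3 and knockdown array 1 lay in the first row of the slide and knockdown arrays 2 and 3 in the other row. All 12 markers of neuroblastoma and sympathetic neurons were well above background on all arrays, and their summed signal was 262000 to 275700 intensity units in control and 239800 to 256200 in knockdown. Of these 12, only Th was called, lower by 0.62 on the log2 scale (limma adjusted p = 0.00154). The others moved both ways, with Phox2a, the brightest, at -0.49 and Gata2 at 0.56. Of the cell types known for large fat stores, none of 4 hepatocyte markers was well above background on any array and none of 6 adipocyte markers on all arrays. The summed adipocyte signal was 33.1 to 44.2 intensity units in control and 44.8 to 63.0 in knockdown. Of these 6, only Cfd was called, higher by 0.95 (limma adjusted p = 0.0262), and it was well above background on 1 array. Adipoq, well above background on 3 arrays, changed by 1.15 (limma adjusted p = 0.0557). Retn, well above background on 2 arrays, changed by -0.56 (limma adjusted p = 0.43). The part of these markers in the results was not tested.

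Knockdown lowered the RNA of 1 lipin and left the other 9 genes of the set within 1.5-fold of control. Lpin1 was down-regulated 7.04-fold, while Lpin2 and Agpat5 were higher by 1.31-fold and 1.28-fold. A gene was called when its limma adjusted p was below 0.05 and it changed by more than 1.5-fold. By that rule 1 of the 10 genes was called lower and 0 were called higher, against 5.0% of all tested genes called lower, 3.91% called higher and 8.91% called either way. With no minimum fold, 1 of the 10 genes passed as lower and 2 as higher, against 15.8% of all genes in each direction. The median change of the 10 genes was 0.03 on the log2 scale, and that of all genes tested was 0.0052.

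NF-Y binds CCAAT boxes, so the sequence before each start site is shown for the gene that fell and for the members that hold a CCAAT box. Sequences are from RefSeq promoters of build GRCm38.p6, whose table held 7 of the 10 genes: Lpin1, Lpin2, Lpin3, Gpam, Agpat1, Agpat2 and Agpat3. The 250 bases before each annotated start were searched on both strands for CCAAT, for the sterol regulatory element TCACNCCAC and for the E-box CACGTG. The E-box reads the same on both strands, and a CCAAT can share bases with an ATTGG. The window of Lpin1 lies at chr12:16610967-16611216 on the minus strand and held none of the 3 motifs, so it has no capitals. The other lines give 30 bases around 1 CCAAT box each, at chr17:71204585-71204614 on the plus strand before the third annotated start of Lpin2, at chr19:55127295-55127324 on the minus strand for Gpam, and at chr17:34605814-34605843 on the plus strand for Agpat1. Capitals mark the CCAAT box, which reads ATTGG where it lies on the opposite strand.
Lpin1 upstream: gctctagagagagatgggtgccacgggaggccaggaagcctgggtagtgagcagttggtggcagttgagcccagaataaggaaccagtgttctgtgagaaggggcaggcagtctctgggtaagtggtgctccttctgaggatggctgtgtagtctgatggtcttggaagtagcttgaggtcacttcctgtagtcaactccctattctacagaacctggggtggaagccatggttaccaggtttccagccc
Lpin2 CCAAT box: tgagcaaatctcATTGGtaaagtggtgtgt
Gpam CCAAT box: ctgaagctttcgATTGGctgatcaagctca
Agpat1 CCAAT box: tctgaagaggcgATTGGcgaggcccgctgc

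Of the 7 genes in the table, 3 held a CCAAT box within 250 bases before a start, against 37.5% of all 27025 genes in the table and 33.8% of its 32851 windows. These were Lpin2, Gpam and Agpat1, none of which was called. In Lpin2, 3 boxes preceded the same start, beginning 233, 165 and 57 bases before it. The box of Gpam began 74 bases and that of Agpat1 35 bases before the start. The sterol regulatory element was in none of the 7 genes and in 1.22% of all genes, and the E-box was in Lpin2 and in 6.86% of all genes. That no motif was found in the Lpin1 window says only that these letters are not in it.

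Lpin1 encodes lipin 1, the family member best known from mice that lack body fat. Its brighter probe, A_55_P2083481, gave processed signals of 1067, 1031 and 1112 intensity units on control arrays 1, 2 and 3. The same probe gave 145, 120.1 and 189 intensity units on knockdown arrays 1, 2 and 3. All 3 knockdown arrays were far below all 3 control arrays, and the spread among the knockdown arrays was wider than among the controls. Normalized signal (log2 of the processed signal, relative to the 75th percentile of its array) averaged 0.52 ± 0.043 on control arrays and -2.30 ± 0.32 on knockdown arrays (SD, n = 3 each). The change was -2.82 (SE 0.17, 95% interval -3.24 to -2.39, limma adjusted p = 0.000785), so that 14.2% of the control signal remained. Among all tested genes this change stood at the 0.0121st percentile. Within the first slide row, knockdown array 1 minus the mean of the 3 controls was -2.88.

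The other Lpin1 probe, A_55_P2083474, was dim. It gave 19.6, 16.8 and 25.6 intensity units on the control arrays and 6.89, 8.59 and 2.91 on the knockdown arrays. The groups did not overlap on this probe either. Its measured change was -1.839 on the log2 scale (limma adjusted p = 0.0406). It was well above background on all 3 control arrays and on 0 of 3 knockdown arrays, so only a bound is given, a decrease of at least 1.84-fold. The adjusted p belongs to the measured change, and the bound was not tested. The bound sets the control mean against the dimmest of the probes well above background on each knockdown array, or the probe's own signal where that was higher. Both probes were annotated to the same transcript, and their levels cannot be compared with each other.

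**Figure D1:**
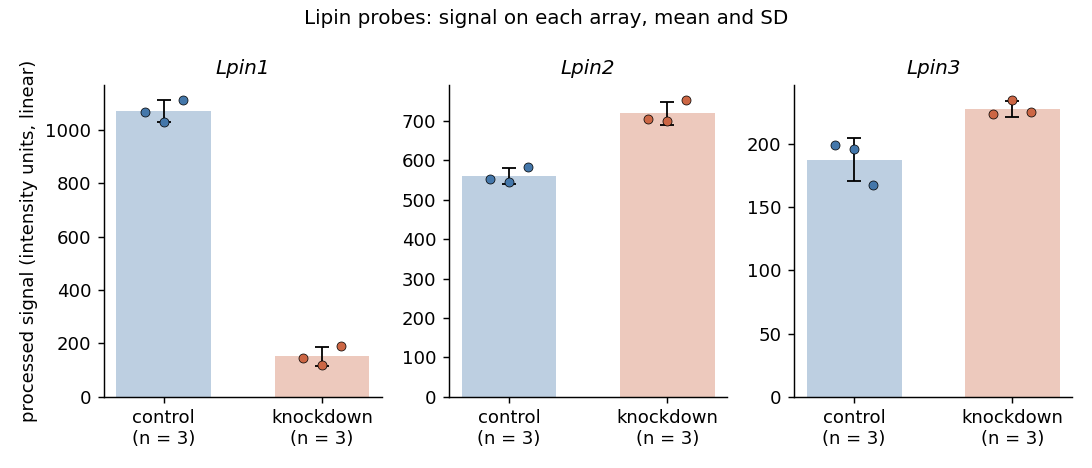
Processed signal of the Lpin1, Lpin2 and Lpin3 probes in linear intensity units, with 1 point per array, bars for the mean and error bars for the SD (n = 3 control, n = 3 knockdown); each panel has its own scale. Lpin1 fell from between 1031 and 1112 to between 120.1 and 189, while the Lpin2 and Lpin3 points of the knockdown arrays sit above those of the controls.

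Lpin2 encodes a phosphatidate phosphatase of the same family, prominent in liver and brain. Its probe A_66_P138976 gave 553, 546 and 582 intensity units on control arrays 1, 2 and 3 and 705, 701 and 754 on knockdown arrays 1, 2 and 3. The groups did not overlap, with every knockdown array above every control array. Normalized signal averaged -0.42 ± 0.041 on control arrays and -0.02 ± 0.066 on knockdown arrays (SD, n = 3 each), a change of 0.39 (SE 0.054, 95% interval 0.26 to 0.53, limma adjusted p = 0.00732). This passed the adjusted p but not the 1.5-fold minimum. When arrays were scaled on their median, the change was 0.28 with an adjusted p of 0.0735. With the slide row as a block it was 0.33. That value rests on knockdown array 1 alone, since the other row held no control array.

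Lpin3 encodes the third family member, described mainly in gut and liver. Its probe A_55_P2083464 gave 199, 196 and 168 intensity units on the control arrays and 224, 235 and 225 on the knockdown arrays. Again every knockdown array was above every control array, although control array 3 was lower than the other 2 controls. The change in normalized signal was 0.32 (SE 0.088, 95% interval 0.09 to 0.54), and it missed the threshold in the main test with a limma adjusted p of 0.0588. Lpin3 passed an adjusted p of 0.05 under 7 of 19 alternative settings, with changes between 0.20 and 0.36.

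Lpin1 was then set against its paralogs within each array, which cancels any scaling of the array. The difference of normalized signal between the Lpin1 and Lpin2 probes shifted by -3.21 between the groups, with an SD of 0.015 over the control arrays and 0.27 over the knockdown arrays. Against Lpin3 the shift was -3.13, with SDs of 0.19 and 0.36. In both pairs the groups did not overlap. An exact permutation test with 20 possible assignments gave a two-sided p of 0.1 for each pair (n = 3 in each group), which is the smallest p this design allows. Over the 9 pairs of Lpin1 with the other genes the shifts were -3.21 to -2.69, and each had the same exact p of 0.1 and a Benjamini-Hochberg value of 0.1 (n = 3 in each group). All 9 pairs share the Lpin1 probe, whose large change sets each outcome, so they are not 9 separate results.

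**Figure D2:**
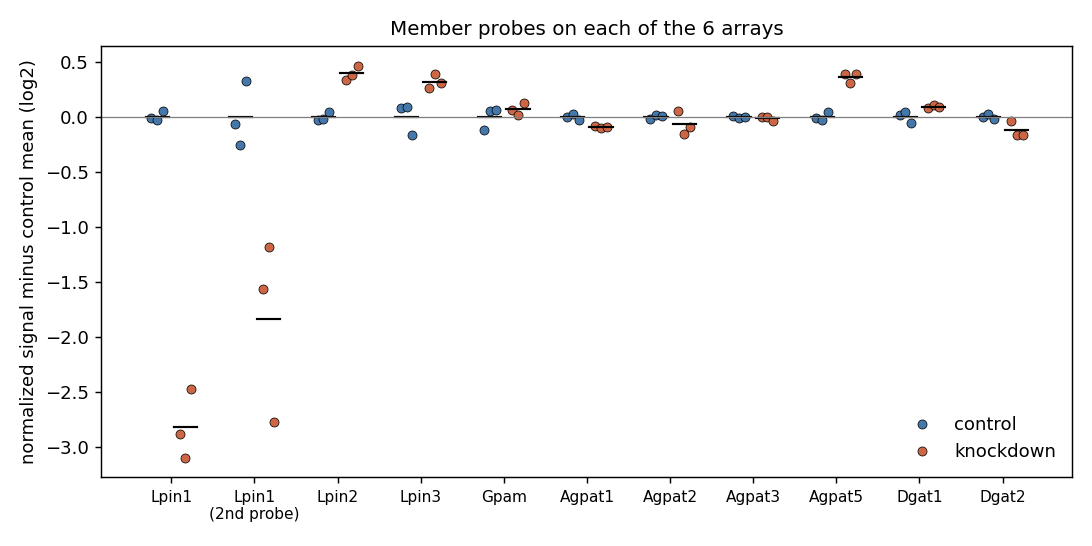
Normalized signal of all 11 probes minus the control mean of the same probe (log2), with 1 point per array in blue for control and red for knockdown and a short line for each group mean. Both Lpin1 probes lie below their controls on every knockdown array, and the knockdown points of Lpin2, Lpin3 and Agpat5 lie above theirs.

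Gpam encodes the mitochondrial glycerol 3-phosphate acyltransferase, which starts the pathway. Its probe A_55_P2050778 read 95.8 to 108 intensity units in control and 100.3 to 109 in knockdown. The groups overlapped. The change was 0.07 (95% interval -0.11 to 0.24, limma adjusted p = 0.539), and its sign turned under median scaling and under quantile normalization.

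The AGPAT enzymes make phosphatidic acid, the substrate of the lipins. Agpat5, whose product is an outer mitochondrial membrane enzyme, was the member of this step whose groups were furthest apart. Its probe A_52_P572447 gave 11575, 11169 and 12036 intensity units on the control arrays and 15133, 13777 and 14764 on the knockdown arrays, so that all knockdown arrays were above all control arrays. The change in normalized signal was 0.36 (SE 0.048, 95% interval 0.24 to 0.48, limma adjusted p = 0.00664), below the 1.5-fold minimum. With median scaling the Agpat5 change was 0.24 (adjusted p = 0.132). With the slide row as a block, which leaves knockdown array 1 alone against the controls, it was 0.39. Agpat1, an endoplasmic reticulum enzyme, read 5677 to 5797 intensity units in control and 5140.4 to 5425 in knockdown, a change of -0.09 (limma adjusted p = 0.164) without overlap of the groups. Agpat2, the enzyme that adipose tissue depends on, read 926 to 944 intensity units in control and 806 to 965 in knockdown. Agpat3, an enzyme of the endoplasmic reticulum and Golgi, read 16326 to 16873 and 15834 to 16595. Agpat2 changed by -0.07 (limma adjusted p = 0.517) and Agpat3 by -0.01 (limma adjusted p = 0.827). Both overlapped between the groups and turned sign under some settings. Agpat2 did so with the slide row as a block, which rests on knockdown array 1 alone. Agpat3 did so under quantile normalization and both normexp corrections.

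Dgat1 and Dgat2 encode unrelated enzymes that carry out the last, committed step. Dgat1 read 1601 to 1691 intensity units in control and 1709 to 1748 in knockdown. Dgat2 read 2458 to 2481 intensity units in control and 2120.3 to 2396.5 in knockdown. The groups of each gene did not overlap, with Dgat1 above and Dgat2 below control, but the differences were small. The change in normalized signal was 0.09 for Dgat1 (95% interval -0.03 to 0.21, limma adjusted p = 0.228), which turned to -0.03 under median scaling, and -0.12 for Dgat2 (95% interval -0.26 to 0.01, limma adjusted p = 0.161).

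Over the whole set, 3 of the 10 genes had every knockdown array below every control array, against 27.1% of all tested genes, and 4 had every knockdown array above, against 27.7%. The former were Lpin1, Agpat1 and Dgat2, and the latter were Lpin2, Lpin3, Agpat5 and Dgat1. Without Lpin1 the changes ran from -0.12 to 0.39 on the log2 scale, 4 below 0 and 5 above. The 95% intervals of these 9 genes all ended inside the 1.5-fold limits.

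**Figure D3:**
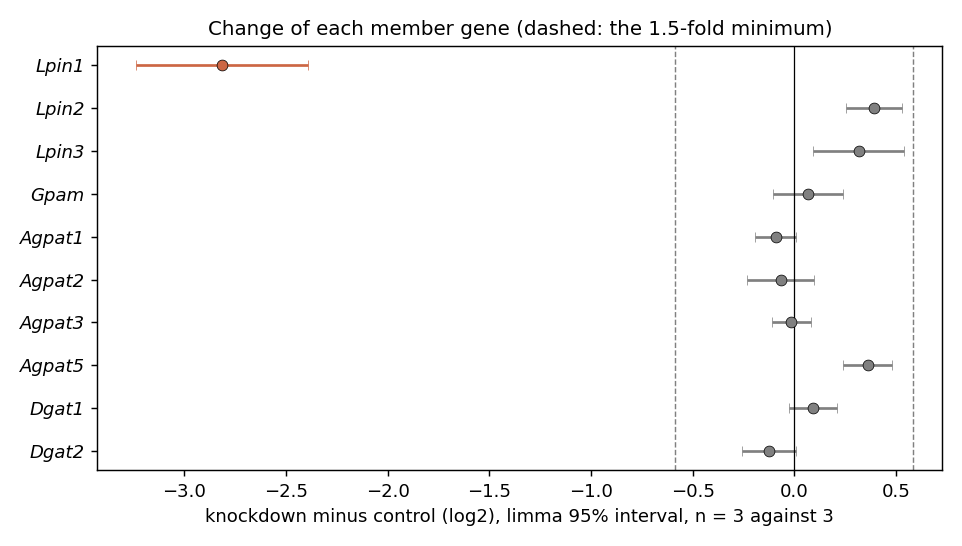
Change of each gene, knockdown minus control on the log2 scale, with its limma 95% interval (n = 3 against 3) and dashed lines at a fold of 1.5 in either direction. The Lpin1 interval of -3.24 to -2.39 lies outside the dashed lines, and the intervals of the other 9 genes lie between them.

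Other enzymes that catalyse a step of the set were read from lists written for this pathway, and none of those named here was called. Among the other glycerol 3-phosphate acyltransferases, Gpat2 changed by -0.14 (limma adjusted p = 0.561), Gpat3 by 0.21 (limma adjusted p = 0.117) and Gpat4 by 0.15 (limma adjusted p = 0.0924). Agpat4, an AGPAT abundant in brain, fell by 0.23 on the log2 scale (limma adjusted p = 0.0185), less than the 1.5-fold minimum. Among the lipid phosphate phosphatases, which also act on phosphatidic acid or related lipids, Plpp1 changed by -0.18 (limma adjusted p = 0.339), Plpp2 by 0.21 (limma adjusted p = 0.0242), Plpp5 by -0.11 (limma adjusted p = 0.164) and Plpp6 by 0.55 (limma adjusted p = 0.0136). Mogat1 and Mogat2 make diacylglycerol by another route, from monoacylglycerol. Mogat2 changed by 0.13 (limma adjusted p = 0.222), and Mogat1 was well above background on 1 control array and 0 knockdown arrays.

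The other genes of triglyceride metabolism were followed in 6 lists with 66 genes, of which 57 were tested. Of these, 7 were called lower and 0 higher, beside the 824 lower and 645 higher of 16478 genes behind the shares of 5.0% and 3.91% given above, and their median change was -0.02. The lists were chosen with earlier results of these data known, so the counts are a description and not a test of the pathway. Agk, a mitochondrial lipid kinase that forms phosphatidic acid, fell by 1.33 on the log2 scale (SE 0.045, limma adjusted p = 0.000322), and it was the 1 called among 15 tested genes that make, use or dephosphorylate phosphatidic acid. The median change of those 15 was -0.09. Gk5, a glycerol kinase relative, fell by 1.095 (SE 0.087, limma adjusted p = 0.0016) among 4 tested genes of glycerol 3-phosphate supply, whose median was 0.0015.

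Among 10 other acyltransferases, 2 were called lower and the median change was -0.02. Gnpat, which starts ether lipid synthesis in peroxisomes, fell by 0.67 on the log2 scale (limma adjusted p = 0.00105). Soat1, which esterifies cholesterol, fell by 0.60 (limma adjusted p = 0.0149), and it lost the call under 7 of 19 settings. Among these were the replicate block (-0.60, adjusted p = 0.0517) and the slide row as a block (-0.50, under 1.5-fold, from knockdown array 1 alone). Both normexp corrections lost it too (-0.32 and -0.38, past the adjusted p but under 1.5-fold). So did the fits without control 2 (-0.61, adjusted p = 0.0561), without control 3 (-0.56, adjusted p = 0.0532) and without knockdown 2 (-0.50, under 1.5-fold).

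Among 6 tested regulators of lipins or of lipid genes, Srebf1 was called. It encodes SREBP-1, an activator of fatty acid and triglyceride synthesis genes, and fell by 0.67 on the log2 scale (SE 0.057, limma adjusted p = 0.00191). Srebf2, whose product acts mainly on cholesterol genes, fell by 0.57 (limma adjusted p = 0.00183), under the 1.5-fold minimum. Srebf2 was called under median scaling (-0.68), without control 2 (-0.59) and with the slide row as a block (-0.61, from knockdown array 1 alone). Ctdnep1 and Cnep1r1 encode the phosphatase that activates lipins by removing phosphate groups. They changed by 0.07 (limma adjusted p = 0.331) and 0.02 (limma adjusted p = 0.773). The median change of the 6 was -0.07.

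On the side of storage and breakdown, 1 of 12 tested lipid droplet genes and 1 of 10 genes of triglyceride breakdown (lipases and their cofactors) were called, both lower. Hsd17b11, a lipid droplet dehydrogenase, fell by 0.94 on the log2 scale (limma adjusted p = 0.00108). Pnpla3, a droplet lipase with acyltransferase activity, fell by 1.77 (SE 0.091, limma adjusted p = 0.00059). Lipid droplet genes had a median change of 0.04 and breakdown genes one of 0.12. Pnpla2, the main triglyceride lipase, rose by 0.37 (limma adjusted p = 0.0127), and its helper Abhd5 by 0.30 (limma adjusted p = 0.0122), while Lipa, the lysosomal acid lipase, fell by 0.48 (limma adjusted p = 0.00447). All 3 were under 1.5-fold and were chosen after their values were seen. Ces1d (limma adjusted p = 0.423) was well above background on 0 control and 2 knockdown arrays, and its signal was 143 intensity units on knockdown array 2 against 15.6 and 3.15 on the other 2.

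**Figure D4:**
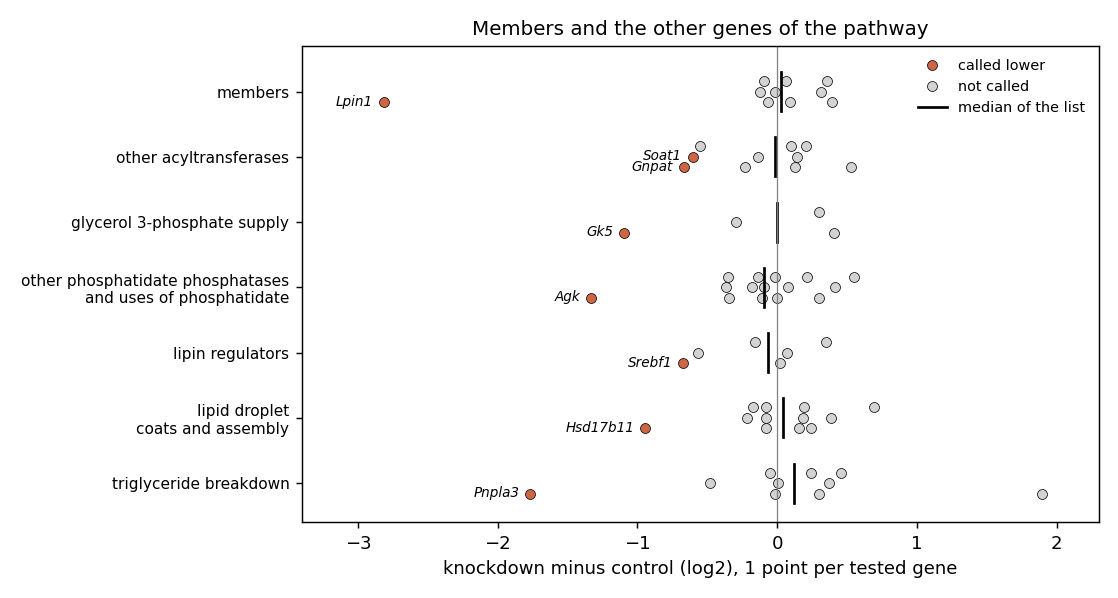
Change of each tested gene, knockdown minus control on the log2 scale, for the 10 members and 6 other lists of triglyceride metabolism, with called genes in red and named and a black line at the median of each list. Of these, 8 genes were called lower, Lpin1 at -2.82 being the lowest and Pnpla3 at -1.77 next, while the medians lie between -0.09 and 0.12; the point at 1.90 is Ces1d, which no control array measured above background.

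The called genes of these lists were also read for CCAAT boxes. Counting Lpin1, 8 genes were called lower and all 8 were in the promoter table. A box was present in 4 of them, namely Hsd17b11, Pnpla3, Soat1 and Srebf1. It was present in 26 of the 47 members and list genes in the table that were not called, and in 37.5% of all genes in the table. These counts are a description, and whether a box goes with a call was not tested. Only 8 genes were called, and genes with several annotated starts had several windows searched. The genes not called include some that fell and passed the adjusted p but not the 1.5-fold minimum. The boxes of Pnpla3 (chr15:84167705-84167734, plus strand) and Soat1 (chr1:156474341-156474370, minus strand) began 99 and 30 bases before the start. They are shown as examples from genes called lower, with the box in capitals.
Pnpla3 CCAAT box: tccagtacgcccATTGGgcctcccactggc
Soat1 CCAAT box: gccgcaggaccaCCAATggcatcccggagc

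The genes whose normalized signal followed that of Lpin1 most closely over the 6 arrays were Scd1 (Pearson r = 0.9998), Tigar (0.9996), Gys1 (0.9994), Chac1 (0.9993) and Tspan14 (0.9992). They were drawn from 13976 genes well above background on all 6 arrays, of which 1852 had r above 0.95, and the points share the split into control and knockdown, so the values are given as a description. Scd1, the stearoyl-CoA desaturase that makes oleate, gave 3089, 3012 and 3257 intensity units on control arrays 1, 2 and 3. On knockdown arrays 1, 2 and 3 it gave 403, 316 and 493. Like Lpin1, it was lowest on knockdown array 2 and highest, within that group, on knockdown array 3. Scd1 was picked for its likeness to Lpin1 on these same arrays, so the shared order is not a separate observation. The change of Scd1 was -2.94 (SE 0.16), and those of Tigar, Gys1 and Chac1 were -0.92, -1.32 and -0.59. Tspan14 changed by -0.38 and was not called. Within the set, Agpat1 had the highest r with Lpin1 (0.932) and Agpat5 the lowest (-0.958).

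**Figure D5:**
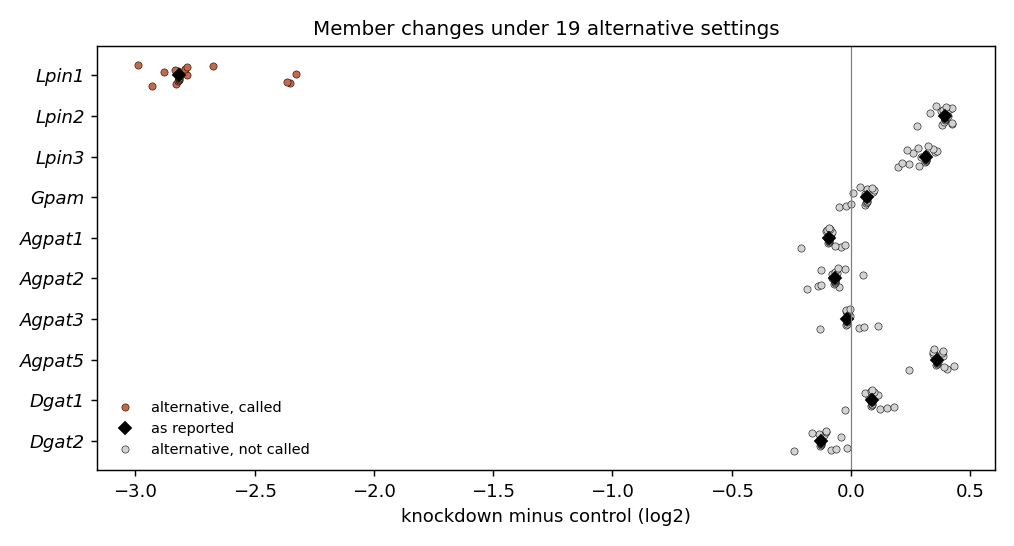
Change of each member gene, knockdown minus control on the log2 scale, as reported (black diamonds) and under 19 alternative settings (circles, red where called). Lpin1 stayed called in all 19, between -2.99 and -2.33, and the other 9 genes were called in none.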

How the data were processed

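The 6 arrays were Agilent SurePrint mouse gene expression arrays. The authors deposited scanner tables of Agilent Feature Extraction 10.10.1.1, whose processed signal is an intensity on a linear scale after background subtraction, and a series matrix of log2 values, whose differences between arrays matched log2 processed signal minus each array's 75th percentile within 0.00761 over 43557 probes. What constant was taken off each probe in the deposited log2 matrix is not given in the sources used here. Groups came from the sample titles. Spots flagged as outliers and control spots were left out, log2 intensity minus the 75th percentile of the array was averaged over the spots of a probe, and probes at or above the 20th percentile of their array on all 3 arrays of a group were kept (42086 of 55681, with 245 lacking a value). Of several probes of a gene, the one of highest mean signal stood for it, named through RefSeq accessions (GRCm38.p6). The 2 groups were set against each other in limma 3.58.1 (R 4.3.3, two-sided, lmFit and eBayes with no covariates), adjusted by Benjamini-Hochberg over all tested probes, on scripts tested on simulated data. The number of arrays limits the precision. Alternatives covered scaling, background, filters, thresholds, blocks, array weights and leaving out each array. With the slide row as a block, the change rests on knockdown array 1 against the controls, since the other row held no control array. Named genes were the members, the targeted subunits, called and same-activity genes of the lists, Nfyb, Srebf1, Srebf2 and the 5 genes most like Lpin1. The Plpp genes, Ctdnep1, Cnep1r1, Pnpla2, Abhd5, Lipa and Ces1d were named beyond this rule, after their values were seen. The members and lists were chosen with earlier results of these data known. A glial marker list was also read and is not reported here.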

Additional observations from a re-analysis of the deposited data

How the results depend on the processing

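Lpin1 was called under all 19 alternatives, between -2.99 and -2.33, with adjusted p values of 3.07e-07 to 0.0221, and leaving out each array in turn gave -2.99 to -2.68. The shift of Lpin1 against Lpin2 ranged from -3.35 to -2.72 and that against Lpin3 from -3.31 to -2.58. Of the 10 genes, 1 was called lower under all 21 alternatives, and 0 were called higher except with no minimum fold, where it was 2. The sign turned for Gpam under median scaling (-0.0501) and quantile normalization (-0.0182), for Agpat2 with the slide row as a block (0.0492), for Agpat3 under quantile normalization (0.0346) and normexp on the median signal with the 75th percentile (0.0553) or quantile normalization (0.113), and for Dgat1 under median scaling (-0.0258). The slide row setting rests on knockdown array 1 alone. The cause of these turns of sign was not tested. Over all genes, 824 were called lower and 645 higher. These counts became 2603 and 2600 with no minimum fold and 286 and 181 with a fold above 2, where the threshold itself sets them, and the higher count became 382 under median scaling and 278 and 286 under the normexp corrections with the 75th percentile and quantile normalization. Leaving out 1 array gave 751 to 831 lower and 552 to 613 higher. The share of calls that were lower was 56.1%, against 75.5% under median scaling, which moved the median of all genes to -0.11, and 67.7% and 66.1% under the normexp corrections. Arrays with the same number in their titles did not deviate together (residual correlations 0.0188, 0.0682 and 0.00309). The deposited tables carry other numbers than the titles, so which arrays belong together is uncertain, and over all 9 control and knockdown pairs the correlations were -0.0826 to 0.0682. With the title numbers, the replicate block gave 765 lower and 518 higher, with Lpin1 at -2.82 (limma adjusted p = 0.0221). In the members it changed no call. Normexp on the mean signal could not be run, since the scanner tables given here have no such column, and normexp on the median signal was chosen instead after seeing the data. Probes with weak signal over background, such as the second Lpin1 probe, give only bounds.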
